A study of Mus musculus with 40 samples.

Results

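RNA-Seq counts of the 9 genes Igf1, Igf1r, Igf2r, Igfbp2, Igfbp3, Igfbp4, Igfbp5, Igfbp6 and Igfbp7 were examined, which encode the ligand IGF1, the IGF receptors and 6 IGF binding proteins. They were taken by symbol from a table of 24062 genes, and all 9 had enough counts to be tested in each comparison, with at least 330 counts in every library. The cells were mouse embryonic fibroblasts (MEFs), primary cultures from embryos of 13.5 days post coitum at passage 3, on the mixed background C57BL/6J-129P2OlaHsd. The embryos were wild-type (WT), heterozygous (Het) or knockout (KO) for Sall2, which encodes a transcription factor with zinc fingers, and the labels name no Cre or other transgene. Cultures were left untreated (control) or received 1 μM doxorubicin, an anthracycline that poisons topoisomerase II and breaks DNA, for 16 h. There were 5 control libraries, from 1 WT, 1 Het and 3 KO embryos (KO1, KO2 and KO3). There were 4 distinct doxorubicin libraries, from the WT, the Het and 2 KO embryos. The treated libraries labelled as KO2 and KO3 held the same count in 24062 of 24062 genes, and a single one of them was kept, as KO2.

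IGF1 and IGF2 are secreted growth factors that bind the receptor tyrosine kinase IGF1R, which signals through the IRS adaptors, PI3K and AKT to growth and survival. IGF2R, the cation-independent mannose 6-phosphate receptor, carries lysosomal enzymes and takes up IGF2 for breakdown without signalling as a kinase. The IGF binding proteins hold the ligands outside the cell, lengthen their life and either block or present them to the receptor, and proteases such as PAPPA cut them to set the ligands free. Fibroblasts are a major source of IGF binding proteins in tissue, IGF1R is required for normal embryonic growth, and Igfbp3 is a known target gene of p53.

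Total counts lay between 15560728 and 24122414 per library, and values are given as CPM, counts scaled to a common library size with TMM factors over the 9 libraries. The knockout did not remove the Sall2 transcript from the counts, with 38.0 CPM in WT control, 24.0 CPM in Het control and 19.1 to 24.4 CPM in the KO controls. All 10 genes of a fibroblast marker list were detected in every library, and their summed level was 16588 to 97070 CPM in control and 21967 to 59749 CPM with doxorubicin. Of 6 p53 target genes, 1 was called lower with doxorubicin (edgeR's quasi-likelihood test, false discovery rate (FDR) under 0.01). With the embryo as a replicate block in the model, 2 were called lower. The summed level of the 6 was 1954 to 2681 CPM in control and 1750 to 2058 CPM with the drug. The control libraries of Het and of KO3 stood apart: their TMM factors were 1.25 and 1.22 against 0.815 to 0.824 in the other control libraries, and the summed level of 8 interferon response genes ran from 43.8 CPM in WT to 1990 CPM in KO3. The libraries of KO2 held at most 1 count of each of 4 Y-linked genes in both treatments, those of KO1 at least 83, and that of KO3 at least 766, so the library counted once matched KO2 and not KO3. WT and Het held at most 2 counts of each, so KO1 and KO3 differed from WT in sex and KO2 did not. A difference between WT and KO cannot be told apart from a difference between single embryos. For KO1 and KO3 it cannot be told apart from a difference in sex either. The paper also reports a segment of embryonic stem cell origin around Sall2 in KO, and variants on further chromosomes distributed unlike WT. Their part cannot be told apart from that of the knockout either.

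Doxorubicin went with a fall of Igf1r, the signalling receptor, to 22.9% to 26.8% of its control level in WT and KO and to 56.5% in Het, and with a rise of Igfbp3 by 1.89-fold to 2.39-fold in the 4 embryos. In a fit that also removed the level of each embryo, Igfbp2, Igfbp6 and Igfbp7 rose as well and Igfbp5 fell, whereas Igf1, Igf2r and Igfbp4 were not called. Thus 2 of the 9 genes were called at an FDR under 0.01 without the embryo in the model (edgeR's quasi-likelihood test, Benjamini-Hochberg adjustment, 9 libraries), beside 42.1% of the 14883 genes tested. Of the members 1 was higher, beside 21.9% of all genes, and 1 was lower, beside 20.2%. With the embryo as a replicate block 6 of 9 were called, beside 59.4% of all genes. Of these 4 were higher, beside 30.6%, and 2 were lower, beside 28.8%. The share of called members was not larger than that of the transcriptome in the first fit and near it in the second. Over the 9 members the log2 fold change had a median of 0.36 without and 0.10 with the block, beside -0.02 and 0.03 over all genes. The control library of KO3 has no partner and adds nothing to the blocked estimate. When the library counted once was taken as that of KO3, 3 of 9 genes (Igf1r, Igfbp2 and Igfbp3) were called under the block.

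**Figure D1:**
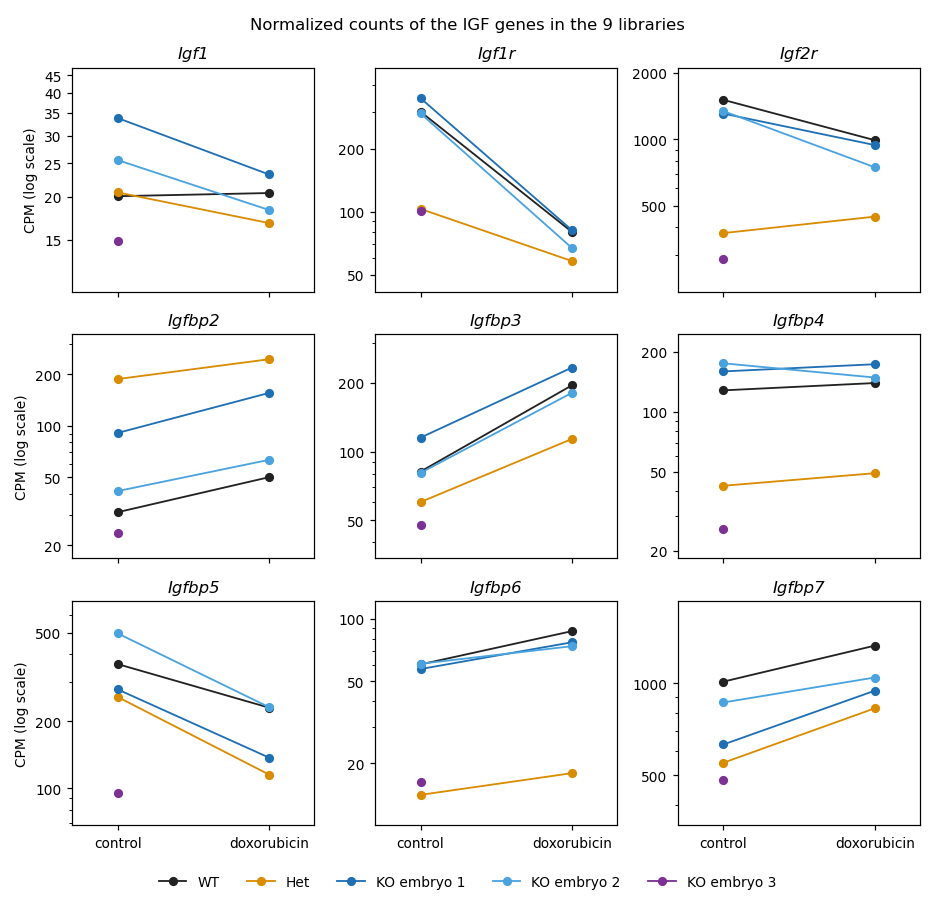
CPM (log scale) of the 9 IGF genes in control and doxorubicin libraries, 1 point per library, with a line joining the libraries of an embryo and no line for KO3, which has a control library alone. Igf1r falls in all 4 joined embryos and Igfbp3 rises in all 4, while the control points of Het and KO3 lie low for most genes.

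Igf1, the ligand, was the member with the lowest level per kb of exon. Igf1 in control was at 20.1 CPM in WT, 20.6 in Het, 33.8 in KO1, 25.5 in KO2 and 14.9 in KO3. With doxorubicin, Igf1 was at 20.5 CPM in WT, 16.8 in Het, 23.2 in KO1 and 18.3 in KO2. The groups overlapped, with the highest and the lowest value both among KO control libraries. The log2 fold change was -0.15 ± 0.24 (SE, edgeR's quasi-likelihood test, FDR = 0.62) and -0.27 ± 0.14 with the replicate block (FDR = 0.11). Igf2, the other ligand, is an imprinted fetal growth factor. Its level ran from 930.4 to 4355 CPM in control and from 1906 to 5524 CPM with doxorubicin, higher with the drug in 4 of 4 embryos. It was not called without the block (log2 fold change 0.78 ± 0.43, edgeR's quasi-likelihood test, FDR = 0.15) and was called higher with it (0.57 ± 0.12, FDR = 0.0031).

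Igf1r lies on chromosome 7 (chr7:67952827-68233668, plus strand, GRCm38). Igf1r in control was at 299.8 CPM in WT, 103 in Het, 348 in KO1, 294 in KO2 and 101 in KO3. With doxorubicin, Igf1r was at 80.2 CPM in WT, 58.3 in Het, 81.7 in KO1 and 67.2 in KO2. Every doxorubicin library lay below every control library, and Het and KO3 were low among the controls. Igf1r was the member without overlap between treatments, 1 of 9, beside 47.3% of all genes in either direction and 24.3% in this direction. The level with the drug was 26.8% of control in WT, 23.5% and 22.9% in KO1 and KO2 and 56.5% in Het. The log2 fold change was -1.52 ± 0.37 (edgeR's quasi-likelihood test, FDR = 0.0077) and -1.69 ± 0.22 with the replicate block (FDR = 0.00031). Without the block the call was lost when any library other than the KO3 control was left out, with an FDR of 0.0123 without the Het control and 0.0378 without the WT doxorubicin library as the lowest and the highest of these 8 fits by edgeR.

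Igf2r, which removes IGF2, did not move in a uniform way. Igf2r in control was at 1509.6 CPM in WT, 377 in Het, 1308 in KO1, 1343 in KO2 and 287 in KO3. With doxorubicin, Igf2r was at 992 CPM in WT, 447 in Het, 943 in KO1 and 748 in KO2. It was lower with the drug in WT and both KO embryos, at 55.7% to 72.0% of control, and higher in Het, at 119%. The log2 fold change was -0.15 ± 0.43 (edgeR's quasi-likelihood test, FDR = 0.79) and -0.37 ± 0.18 with the replicate block (FDR = 0.095). The direction depended on the libraries and on the model: without the controls of KO3 and Het the gene was called lower (log2 fold change -0.63, edgeR FDR = 0.00091), and with 1 factor of unwanted variation from RUVg it was called higher (0.61, edgeR FDR = 0.0014). The antisense transcript Airn starts within Igf2r on the other strand. Their GENCODE exons share 0 bases, but neither the strand setting nor these exons can be assumed for the counting, which used another annotation. Airn held 8 to 168 counts against at least 6355 for Igf2r.

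**Figure D2:**
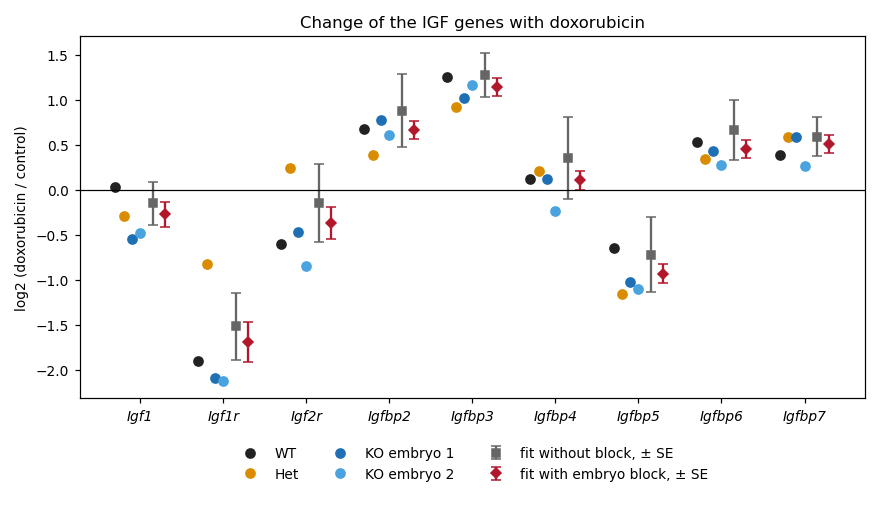
Log2 ratio of doxorubicin to control CPM for each IGF gene in WT, Het and KO1 and KO2 (circles), with the log2 fold change ± SE fitted without the embryo (squares) and with the embryo as a block (diamonds). The SE shrinks under the block, for Igfbp5 from 0.42 to 0.11, while both fits lie on the same side of 0 for all 9 genes.

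The windows of 250 bases before the RefSeq transcription start (GRCm38.p6) are shown for Igf1r and Igfbp3, the members called in both fits, which changed in opposite directions. Lower case marks the window, capitals mark the GC box GGGCGG on either strand, and the window of Igf1r lies on the plus strand (chr7:67952007-67952256) and that of Igfbp3 on the minus strand (chr11:7213924-7214173).
Igf1r: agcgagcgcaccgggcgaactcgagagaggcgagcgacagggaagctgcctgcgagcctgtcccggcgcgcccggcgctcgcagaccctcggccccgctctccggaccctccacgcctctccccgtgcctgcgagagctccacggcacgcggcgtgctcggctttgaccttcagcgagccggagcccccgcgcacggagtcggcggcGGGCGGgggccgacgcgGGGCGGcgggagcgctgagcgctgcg
Igfbp3: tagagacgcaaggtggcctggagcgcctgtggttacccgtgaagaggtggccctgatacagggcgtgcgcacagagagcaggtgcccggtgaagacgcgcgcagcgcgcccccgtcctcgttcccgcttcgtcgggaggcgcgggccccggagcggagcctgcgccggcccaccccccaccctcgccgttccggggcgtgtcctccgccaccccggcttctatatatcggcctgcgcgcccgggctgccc
Both windows are rich in G and C, at 77.6% and 73.2% beside a median of 52.4% over 32851 windows, and neither overlaps an annotated exon. The Igf1r window holds 2 GC boxes and that of Igfbp3 holds none. Over the 10 windows of the 9 genes (Igfbp2 has a pair of starts) a GC box was found in 4, beside 32.7% of all windows, TATAAA in 2, beside 12.4%, and CCAAT in 2, beside 33.8%. The p53 motif was matched in 0 of 10 windows, beside 7.13% of all. These counts describe letters in a window and not binding.

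Igfbp3, the main carrier of IGFs in serum, lies on chromosome 11 (chr11:7206086-7213923, minus strand). Igfbp3 in control was at 81.8 CPM in WT, 60.1 in Het, 115 in KO1, 80.7 in KO2 and 47.7 in KO3. With doxorubicin, Igfbp3 was at 195 CPM in WT, 114 in Het, 233 in KO1 and 181 in KO2. The Het doxorubicin value lay just under the control of KO1, so the groups overlapped, while each embryo on its own rose by 1.89-fold (Het) to 2.39-fold (WT). The log2 fold change was 1.28 ± 0.24 (edgeR's quasi-likelihood test, FDR = 0.0023) and 1.14 ± 0.10 with the replicate block (FDR = 3.9e-05). Without the block the call was lost without the WT control (FDR = 0.0114), the WT doxorubicin library (FDR = 0.0122) or the KO1 doxorubicin library (FDR = 0.0138), by the same edgeR test.

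Igfbp2, a binding protein that prefers IGF2, differed more between embryos than between treatments. Igfbp2 in control was at 31.3 CPM in WT, 188 in Het, 90.9 in KO1, 41.5 in KO2 and 23.5 in KO3. With doxorubicin, Igfbp2 was at 50.1 CPM in WT, 245 in Het, 156 in KO1 and 63.3 in KO2. The order Het, KO1, KO2, WT was the same in both treatments, and every embryo was higher with the drug, by 1.31-fold in Het to 1.71-fold in KO1. The gene was not called without the embryo (log2 fold change 0.88 ± 0.41, edgeR's quasi-likelihood test, FDR = 0.095) and rose under the replicate block (0.66 ± 0.10, FDR = 0.00066).

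Igfbp5, which binds both ligands and matrix, fell under the replicate block. Igfbp5 in control was at 361 CPM in WT, 257 in Het, 278 in KO1, 497 in KO2 and 95.5 in KO3. With doxorubicin, Igfbp5 was at 230.1 CPM in WT, 115 in Het, 137 in KO1 and 231 in KO2. The treated libraries were at 44.8% to 63.7% of the control of their own embryo, although the groups overlapped because the control of KO3 was lower than every treated library. The log2 fold change was -0.93 ± 0.11 with the block (edgeR's quasi-likelihood test, FDR = 0.00017) and -0.72 ± 0.42 without it (FDR = 0.18), and -0.08 with 1 factor from RUVg in place of the block (FDR = 0.80). Igfbp2 and Igfbp5 are neighbours on chromosome 1, in a tail-to-tail position (chr1:72824503-72852474, plus strand, and chr1:72857932-72874884, minus strand), and changed in opposite directions under the block.

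Igfbp6, a binding protein with a strong preference for IGF2, and Igfbp7, a secreted relative that binds IGFs weakly, rose under the replicate block by modest amounts. Igfbp6 in control was at 60.2 CPM in WT, 14.1 in Het, 57.2 in KO1, 60.7 in KO2 and 16.3 in KO3. With doxorubicin, Igfbp6 was at 87.2 CPM in WT, 17.9 in Het, 77.0 in KO1 and 73.7 in KO2. It was higher with the drug in each embryo, by 1.22-fold to 1.45-fold, while Het with the drug stayed below the WT, KO1 and KO2 controls and just above that of KO3 (log2 fold change with the block 0.45 ± 0.10, edgeR's quasi-likelihood test, FDR = 0.0042; without it 0.66 ± 0.34, FDR = 0.12). Igfbp7 in control was at 1013 CPM in WT, 550.5 in Het, 631 in KO1, 866 in KO2 and 482 in KO3. With doxorubicin, Igfbp7 was at 1328 CPM in WT, 829 in Het, 946 in KO1 and 1045 in KO2. Each embryo was higher with the drug, by 1.21-fold in KO2 to 1.51-fold in Het (log2 fold change with the block 0.51 ± 0.10, edgeR's quasi-likelihood test, FDR = 0.0024, and without it 0.59 ± 0.22, FDR = 0.048). Of the Igfbp7 exon bases 7.03% are shared with Polr2b, and the other 8 members share none with another gene.

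Igfbp4, an inhibitor of IGF action that PAPPA cuts, was not called with or without the block. Igfbp4 in control was at 128 CPM in WT, 42.5 in Het, 159.7 in KO1, 175 in KO2 and 25.7 in KO3. With doxorubicin, Igfbp4 was at 139.6 CPM in WT, 49.1 in Het, 174 in KO1 and 149 in KO2. WT, Het and KO1 were slightly higher with the drug and KO2 was lower (log2 fold change 0.36 ± 0.46, edgeR's quasi-likelihood test, FDR = 0.53, and 0.10 ± 0.11 with the block, FDR = 0.42). With 1 factor from RUVg it was called higher (1.29, edgeR FDR = 6.6e-05). Over all members 6 of 9 changed in the same direction in 4 of 4 embryos, 4 upward and 2 downward, beside 75.5% of all genes in either direction, 36.8% upward and 38.7% downward. Within KO alone (3 control and 2 treated libraries) 0 of 9 members were called, beside 12.8% of 14904 genes (edgeR's quasi-likelihood test), with Igf1r and Igfbp3 at an unadjusted p under 0.05 and called by DESeq2, and 8 of 9 were called with the replicate block, all but Igfbp4, beside 67.5% of all genes in a fit with 1 residual degree of freedom.

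The control libraries of Het and KO3 were low in the IGF genes. KO3 lay below WT and KO1 and KO2 in 9 of 9 members, beside 43.4% of all genes, and Het in 7 of 9, beside 43.1%, the exceptions being Igf1 and Igfbp2. The sizes were large for Igf2r, at 0.250 of WT in Het and 0.190 in KO3, for Igfbp6, at 0.234 and 0.271, for Igfbp4, at 0.331 and 0.200, and for Igf1r, at 0.344 and 0.337. With doxorubicin Het had the lowest value of the 4 libraries for each member but Igfbp2, at 0.206 of WT for Igfbp6 and 0.352 for Igfbp4. The share of all genes lowest in this library, whose TMM factor was 1.35, was not computed. The summed fibroblast markers were also low, at 20335 CPM in Het and 16588 CPM in KO3 against 79457 to 97070 CPM in the other controls. The summed macrophage markers (438 and 346 CPM against 91.6 to 162) and interferon genes (1791 and 1990 CPM against 43.8 to 60.3) were high in the same libraries. Lyz2 had the most counts of the macrophage markers (743 to 8201 per library), ahead of Ptprc (31 to 995). The sum thus need not hold for each marker. In bulk RNA, fewer cells of a type and less RNA per cell cannot be told apart. The part of the marker and interferon genes in the result was not tested. Of these embryos 1 was Het and the other KO, while KO1 and KO2 were at 0.867 to 1.16 of WT for Igf1r and Igf2r in control. The low levels of Het and KO3 as a pair were not tested against genotype, and the tests of genotype in all control libraries are given below.

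**Figure D3:**
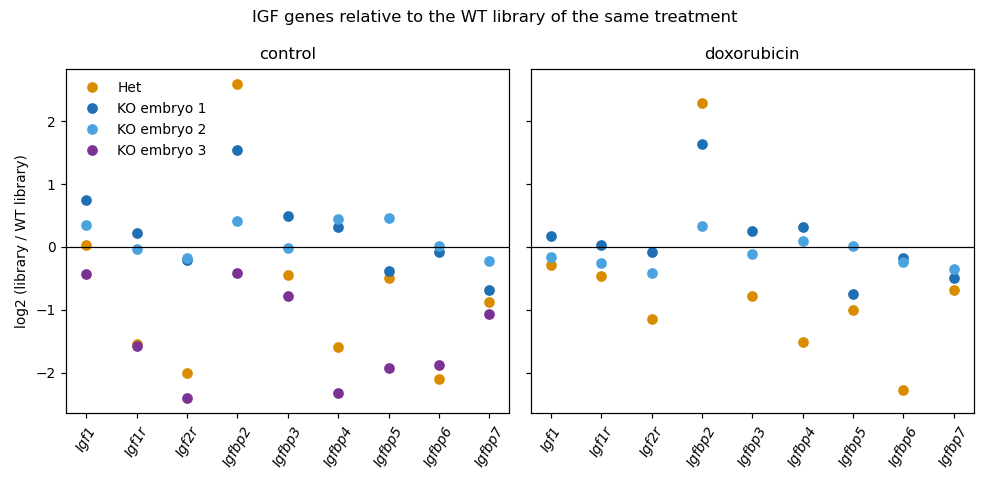
Log2 ratio of each library to the WT library of the same treatment for the 9 IGF genes, control on the left and doxorubicin on the right, 1 point per library. KO1 and KO2 lie near 0 for most genes, Het and KO3 lie low for Igf1r, Igf2r, Igfbp4 and Igfbp6 in control, and Igfbp2 is high in Het and KO1.

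Between KO and WT in control, 0 of 9 members were called, beside 0.0% of 14470 genes (edgeR's quasi-likelihood test, 1 WT and 3 KO libraries), with 10 genes and no member at an unadjusted p under 0.05 and 0 genes called by DESeq2. The log2 fold changes of the members lay between -0.60 ± 0.99 for Igf2r and 0.76 ± 0.81 for Igfbp2, each with an FDR of 1.0 by edgeR. Sall2 itself was not called in this test either (log2 fold change -0.81 ± 0.32), so an uncalled member does not show that there was no difference. The paper, with RUVg normalization and an exact test, reports differentially expressed genes between WT and KO. KO1 and KO2 alone were at 0.867 to 1.16 of WT for Igf1r and Igf2r. Igf1 was at 1.68 and 1.27 of WT in these 2 embryos and at 0.741 in KO3, so the KO values lay on both sides of WT. Along the Sall2 dose (WT 1, Het 0.5, KO 0) in control, 0 of 9 members were called, beside 0.0% of 14947 genes by edgeR, with 11 genes at an unadjusted p under 0.05 and 0 by DESeq2. The interaction of genotype and treatment also called 0 of 9, beside 0.0% of 15905 genes by edgeR, with 41 genes at an unadjusted p under 0.05 and 0 by DESeq2, and with the replicate block 8 genes, none of them a member.

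With doxorubicin, Igfbp2 was the 1 member of 9 called between KO and WT, beside 0.197% of 15256 genes, 0.118% in this direction (edgeR's quasi-likelihood test, 1 WT and 2 KO libraries). The log2 fold change was 1.13 ± 0.22 (FDR = 0.00025), with KO1 at 3.11-fold and KO2 at 1.26-fold of WT. The KO embryos thus differed from each other by more than KO2 differed from WT. The fit left 1 residual degree of freedom, from KO1 and KO2, so the SE largely reflects the spread of other genes. Het, with 4.89-fold of WT, was higher than both, so the level did not follow the number of Sall2 copies. The call was absent in DESeq2 (adjusted p = 1.0) and when all 9 libraries shared the estimate of the spread (log2 fold change 1.14, edgeR FDR = 1.0). The other 8 members had log2 fold changes between -0.41 ± 0.29 (Igfbp7) and 0.21 ± 0.23 (Igfbp4), each with an FDR of 1.0 by edgeR.

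Levels can be compared between genes only per length, and the median CPM per kb of exon was used. In control the order was Igfbp7 (522), Igf2r (147), Igfbp6 (51.4), Igfbp5 (46.3), Igfbp4 (32.7), Igfbp2 (28.5), Igfbp3 (25.8), Igf1r (25.8) and Igf1 (2.08). Igfbp7 lay above and Igf1 below the other members in every control library, and the ranges of the 7 genes between them overlapped from each to the next. Within a library, however, Igf2r was 2.20 to 3.35 times as high as Igfbp6 and Igfbp5 1.14 to 3.95 times as high as Igfbp4 in 5 of 5 control libraries. Igfbp6 was higher than Igfbp5 in 1 of 5, Igfbp4 higher than Igfbp2 in 2 of 5, Igfbp2 higher than Igfbp3 in 4 of 5 and Igfbp3 higher than Igf1r in 4 of 5, so the order of these neighbours changed between libraries. With doxorubicin Igfbp7 (824) and Igf2r (95.1) stayed ahead and Igf1 (1.96) stayed last, Igfbp2 (75.0) and Igfbp3 (60.1) moved up to ranks 3 and 5, and Igf1r (6.46) stayed at rank 8. Across the 5 control libraries the highest level was over 2-fold the lowest in 9 of 9 members, from 2.10-fold for Igfbp7 to 7.99-fold for Igfbp2. Without Het and KO3 this ratio was 1.06 for Igfbp6, 1.15 for Igf2r and 1.18 for Igf1r, and 2.91 for Igfbp2.

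For Igf1r and Igfbp3, the members called in both fits, the genes with the most similar log2 CPM over the 9 libraries were Lrp6 (Pearson's r = 0.997) and C1ql3 (0.996), among 14882 other genes. The most similar gene to each of the other 7 members had an r between 0.921 (Hbegf for Igf1) and 0.997 (P4ha3 for Igfbp6). Among the members themselves, Igfbp4 and Igfbp6 (r = 0.943) and Igf2r and Igfbp4 (0.922) ran closest together, and Igfbp2 ran with none of the others (-0.41 to 0.31). These coefficients describe libraries that share treatment and embryo and in which Het and KO3 stand apart.

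Of 48 other genes around the IGF system, 45 were tested for doxorubicin, and 8 were called higher and 11 lower, 42.2% beside 42.1% of all genes (edgeR's quasi-likelihood test, 30 of 45 with the replicate block). The list counts that follow stand beside 21.9% of all genes called higher and 20.2% lower without the block, and 30.6% and 28.8% with it. Among the ligands and binding proteins 3 of 8 were called higher and none lower, and with the block 6 were higher and 1 was lower. The lower one, named after its values were seen, was Pappa, the protease (log2 fold change -1.19, edgeR's quasi-likelihood test, FDR = 3.5e-05 with the block). Stc1 and Stc2, stanniocalcins that inhibit the PAPPA proteases, rose from 3.07 to 9.73 and 5.91 to 11.5 CPM in control to 10.9 to 36.5 and 24.7 to 33.7 CPM (log2 fold changes 2.17 ± 0.24 and 1.91 ± 0.20). Igfals, the acid-labile subunit that joins IGFBP3 and IGF in serum, was at most 0.205 CPM in control and 0.551 to 1.90 CPM with the drug. Its fitted fold change depends on the prior count and is not given, and Igfbp1, with 0 to 5 counts, was not tested.

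Among the receptor kinases and adaptors 3 of 10 were lower and 1 higher, and with the block 5 and 2. Insr, the insulin receptor, fell as Igf1r did (27.9 to 84.5 CPM in control and 9.37 to 21.7 CPM with the drug, log2 fold change -1.68 ± 0.29), as did Irs1, the adaptor of both receptors (-1.08 ± 0.23), and Grb14, an inhibitor of the insulin receptor (-1.22 ± 0.22). Insrr, an orphan relative of both receptors, was at most 0.327 CPM in control and reached 0.918 to 10.3 CPM. Of 16 genes of the PI3K, AKT and mTOR branch 4 were lower and 3 higher (6 and 3 with the block), among them the kinase Rps6kb1 (-1.43 ± 0.13), the mTOR inhibitor Tsc2 (0.74 ± 0.12) and the transcription factors Foxo4 (1.11 ± 0.17) and Foxo3 (0.80 ± 0.20), which AKT keeps out of the nucleus.

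Of the 3 genes for proteins that bind Igf2 mRNA, Igf2bp2 (-1.67 ± 0.18) and Igf2bp1 (-1.04 ± 0.24) fell, the same number as with the block. In the mannose 6-phosphate sorting list, which serves IGF2R as a carrier of lysosomal enzymes, 2 of 8 were lower and 1 higher (2 and 3 with the block): the adaptors Gga3 (-1.47 ± 0.27) and Gga1 (-1.05 ± 0.15) fell, and Gnptg, a subunit of the enzyme that makes the mannose 6-phosphate mark, rose (1.27 ± 0.17). Each gene given with a log2 fold change in these lists, other than Igf2, was called at an FDR under 0.01 and moved in the same direction in 4 of 4 embryos.

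**Figure D4:**
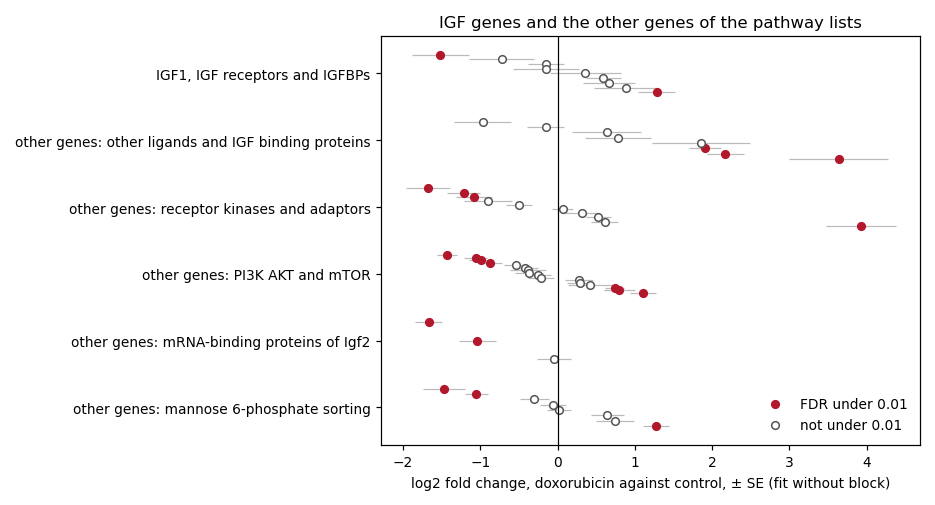
Log2 fold change ± SE of doxorubicin against control (fit without the embryo, 9 libraries) for the 9 IGF genes and the 45 tested genes of 5 further lists, 1 point per gene, filled where the FDR was under 0.01. Called genes lie on both sides of 0 in all groups but the ligands and binding proteins, where the 3 called genes are higher, and the Igf2 mRNA-binding proteins, where the 2 called genes are lower.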

How the data were processed

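The data are the RNA-Seq counts of Sall2 WT, Het and KO MEFs in control and with doxorubicin. Per the labels, libraries were made with a stranded kit after rRNA depletion and sequenced as single reads. Each sample has 4 FASTQ files, which the authors combined and aligned to mm10 with HISAT2 (version 2.1.0 in the submitters' processing notes). The deposited values are raw counts of reads per gene from HTSeq, run in its union mode. The strand setting was not given in the sources used here. The identical doxorubicin libraries were counted once.

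The analysis used R 4.3.3, edgeR 4.0.16 (filterByExpr, TMM, two-sided quasi-likelihood test, Benjamini-Hochberg adjustment over all genes tested, FDR under 0.01), limma 3.58.1 and, as an alternative, DESeq2 1.42.0, after a test on simulated data. The doxorubicin effect was fitted over the 9 libraries with genotype as a covariate, and the comparisons between genotypes on the libraries compared. Folds of single embryos are ratios of CPM, and correlations use log2 CPM with a prior count of 2. For KO against WT the residual degrees of freedom come from KO embryos alone, 2 in control and 1 with doxorubicin. In the doxorubicin fit most do so without the block, while under the block 3 come from the 4 embryos with both treatments. The quasi-likelihood test moderates the spread of each gene with that of all genes. A p-value thus does not measure the spread of a gene between these few cultures alone. Other alternatives were RUVg with 1 factor, other FDR thresholds, every gene with at least 1 count, library sizes without Rn45s and leaving out libraries.

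The pairing comes from the embryo numbers in the labels. Over 14883 genes, the deviations of same-numbered control and doxorubicin libraries from the treatment means correlated with r of 0.521 to 0.743. Each was higher than the r of the same control library with the doxorubicin library of another embryo. The KO3 control was not part of this check. Blocked values are therefore given for the members, Igf2 and Pappa and, as counts, for the p53 targets and the lists around the IGF system. Positions and exon lengths are from GENCODE on GRCm38, promoter windows from RefSeq. The genes, lists and tests were chosen with earlier results of these data known. The text names every member and, in each other list, up to 3 called genes in each direction with the largest change, plus Igf2 and Igfbp1, apart from some that are not reported here.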

Additional observations from a re-analysis of the deposited data

Results flagged for a closer look

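The change of Igf1 with doxorubicin had opposite signs in WT (log2 ratio 0.030) and in the other embryos (Het -0.29, KO1 -0.54 and KO2 -0.48). WT has 1 library per treatment and its ratio is close to 0. The interaction of genotype and treatment over WT and KO gave a log2 difference of -0.28 ± 0.70 for Igf1 (edgeR's quasi-likelihood test, FDR = 1.0), and the difference between WT and Het was not tested.

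Igf2r was higher with doxorubicin in Het (0.25) and lower in WT (-0.61) and in KO1 (-0.47) and KO2 (-0.84). Each of these is a log2 ratio of 1 library to another, and the difference between Het and the other genotypes was not tested. The Het control was at 377 CPM of Igf2r, against 1308 to 1509.6 CPM in WT and KO1 and KO2.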

How the results depend on the processing

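The directions of Igf1r, Igfbp2, Igfbp3, Igfbp5, Igfbp6 and Igfbp7 with doxorubicin were kept over all genotypes in every alternative run, but the number of members called (2 of 9) was not. It was 0 at an FDR under 0.001, 6 with the replicate block, 6 with library totals without TMM and the block, 7 with RUVg, 5 without the controls of KO3 and Het, 7 with the replicate block over WT and KO1 and KO2 alone, and 0 to 5 with single libraries left out. The alternatives without TMM, over WT and KO1 and KO2 alone, and with the other embryo for the library counted once were chosen after seeing the data. The count over all genes (6266) was 3393 at an FDR under 0.001, 10067 without the controls of KO3 and Het, 11064 with the block over WT and KO1 and KO2, and 4102 to 8971 with single libraries left out. Without TMM the median of all genes moved from -0.02 to 0.02. RUVg turned Igf1 to 0.12 and Igf2r to 0.61, and moved Igf1r to -0.97, Igfbp2 to 1.33, Igfbp4 to 1.29, Igfbp5 to -0.08 and Igfbp6 to 1.26. Igf2r was 0.17 with the library counted once taken as KO3 and between -0.36 and 0.0044 with single libraries left out.

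Within KO, members called (0) were 2 by DESeq2, 1 at an FDR under 0.05, 8 with the replicate block and 0 to 2 with single libraries left out. Genes called (1911) were 4555, 5130 and 10055 in the same order, 0 at an FDR under 0.001, and 0 to 8126 with single libraries left out. Igfbp4 turned to -0.012 with the block, and with single libraries left out Igf1 lay between -0.49 and 0.063, Igf2r between -0.62 and 0.12, Igfbp4 between -0.031 and 0.84 and Igfbp5 between -1.10 and 0.013. For KO against WT with doxorubicin, members called (1) were 0 by DESeq2 and 0 with a joint fit to all 9 libraries, and genes called (30) were 5, 0 and, at an FDR under 0.05, 46. Leaving out a library or adding RUVg was not run there, since no residual degree of freedom remains.

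For KO against WT in control, 0 to 47 genes were called with single libraries left out. Igfbp3 was -0.0037 in that joint fit and -0.31 to 0.28 with single libraries left out, where Igf1r ran from -0.57 to 0.12, Igfbp4 from -0.44 to 0.41 and Igfbp5 from -0.92 to 0.12. The slope on Sall2 dose ran, with single libraries left out, from -0.29 to 0.43 for Igf1r, -0.025 to 0.72 for Igf2r, -0.76 to 1.17 for Igfbp2, -0.36 to 0.28 for Igfbp3, -0.59 to 0.29 for Igfbp4, -0.20 to 0.93 for Igfbp5 and -0.19 to 0.50 for Igfbp6. The interaction with the replicate block called 8 genes and was -0.21 for Igf1r, -0.054 for Igf2r, -0.17 for Igfbp3, -0.18 for Igfbp4 and -0.18 for Igfbp6. With single libraries left out it ran from -0.57 to 0.0073 for Igf1, -0.23 to 0.49 for Igf1r, -0.067 to 0.69 for Igf2r, -0.41 to 1.07 for Igfbp2, -0.20 to 0.43 for Igfbp3, -0.20 to 0.68 for Igfbp4, -0.47 to 0.63 for Igfbp5 and -0.20 to 0.50 for Igfbp6. None of these genotype values was called for a member, and the cause of the changes was not tested. With at least 330 counts per member and library, the number of embryos and not depth sets the precision.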

Other observations

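The members differ in the length of DNA they span. By the RefSeq annotation Igf1r spans 281 kb and is the longest of the 9, Igf2r 87.3 kb and Igf1 78.8 kb, and Igfbp3, Igfbp4, Igfbp5 and Igfbp6 are between 5.33 and 16.8 kb. The 3 longest had negative log2 fold changes with doxorubicin, and among the 6 shorter ones Igfbp5 alone was negative, in the fit without the embryo. Of these negative members Igf1r alone was called in that fit. Igf1 (-0.15 ± 0.24) and Igf2r (-0.15 ± 0.43) were within their SE of 0 and turned positive with RUVg. Over the 13483 protein-coding genes that could be matched by symbol among the 14883 tested, the median log2 fold change was 0.28 in the fifth of genes with the shortest spans and -0.20 in the fifth with the longest, and 40.4% and 57.4% of them were lower. The Spearman correlation of span and log2 fold change across these genes was -0.13, given as a description since genes are not independent replicates. Of 755 genes that span at least 200 kb, 58.1% were lower and 11.9% were as low as Igf1r or lower. Neither share was computed over genes of every span, so whether they are unusual cannot be read from them.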
